A study of Homo sapiens with 5 samples.

Results

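The TRIM (tripartite motif) genes form a large family of mostly RING-type ubiquitin ligases, and their RNA levels were compared between HEK293T cells given ascorbic acid (vitamin C) and untreated HEK293T cells. Members were the rows of the deposited count table whose symbol is TRIM followed by digits alone and whose counts over the 5 libraries sum to at least 20. Of 66 such symbols 43 met the minimum, out of 28278 gene symbols in the table. HEK293T is an established line from human embryonic kidney. The treated group held 2 libraries of cells given ascorbic acid, and the control group 3 libraries of cells labelled WT. Neither group carried a further agent or engineered allele in the labels. The labels give no dose. They describe cells seeded for 24 h and then treated, with fresh medium every 6 h, for 24 h where DNA methylation was assayed and 36 h where RNA methylation was, and they do not tie either time to these libraries. Whether libraries of a group came from separate cultures is not stated either, so p-values cover library-to-library spread that may be technical. In bulk RNA, fewer cells of a kind and less RNA per cell cannot be told apart.

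A TRIM protein carries, from its N terminus, a RING finger that recruits a ubiquitin-loaded conjugating enzyme, B-box zinc fingers and a coiled coil through which the proteins pair. The C-terminal domain differs between classes and sets what the ligase binds. PRY-SPRY domains recognise proteins such as viral capsids and immune sensors, COS boxes bind microtubules, NHL repeats bind RNA or protein partners, and the PHD finger and bromodomain read histone tails. Several members are induced by interferon and act in antiviral defence, and TRIM28 is the corepressor through which KRAB zinc finger proteins silence transposable elements. Ascorbic acid keeps iron in the ferrous form that 2-oxoglutarate dependent dioxygenases need, among them TET enzymes and JmjC histone demethylases.

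Library totals ran from 41739602 to 48015766 counts in the treated group and from 35106664 to 57212071 in the control group. In each library 71.3 to 75.9% of the counts from 1 to 10 were even, a pattern that arises where each mate of a pair adds 1 count, so fewer fragments than counts may lie behind a value. HEK293 neural and kidney progenitor markers summed to 1014 to 1057 CPM (counts per 1e6 of the library total, corrected with TMM factors) in treated libraries and 954.3 to 987.4 CPM in controls, and NEFM and NES, members of that list, rose while EYA1 fell. The 8 fibroblast markers, of which 2 were tested and 0 called, summed to 1.525 to 2.268 CPM in treated libraries and 1 to 1.315 CPM in controls, with FAP at 0 in each library. The 7 haematopoietic markers, of which 3 were tested and 0 called, summed to 3.156 to 3.195 CPM in treated libraries and 2.487 to 2.744 CPM in controls, with CD3E at 0. The 6 neuron markers summed to 10.29 to 10.64 CPM in treated libraries and 10.73 to 11.24 CPM in controls. The 8 striated muscle markers summed to 35.25 to 44.17 CPM in treated libraries and 38.58 to 45.05 CPM in controls. TTN gave most of the muscle sum, with 27.9 and 36.3 CPM in treated libraries and 33.0, 38.3 and 34.5 CPM in controls. MYH1, MYH2 and MYH7 had at most 2 counts in any library. No marker of either list was at 0 in all libraries. The part of these shifts in the results was not tested.

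Since promoters carry the elements through which interferon-inducible members are controlled, the RefSeq promoters (GRCh38.p14, 250 bases before to 50 bases after the start site) were read first. Of the 43 members 33 had an entry. The ISRE-type motif, searched on both strands as GAAA, 2 bases of any kind and GAAA again, the core of an interferon-stimulated response element, was present in 7 of 33 member promoters (21.2%) and in 3.65% of all 27305 promoters. The promoters of 3 genes that the results turn on are shown on the strand of the gene, with each ISRE-type match in capitals. TRIM14 and TRIM5 rose and hold a match, and TRIM6, the tested member with the largest increase, holds none. In TRIM14 and TRIM5 the motif lies on the opposite strand and so reads TTTC, 2 bases, TTTC.
TRIM14 promoter, chr9:98119173-98119472, minus strand: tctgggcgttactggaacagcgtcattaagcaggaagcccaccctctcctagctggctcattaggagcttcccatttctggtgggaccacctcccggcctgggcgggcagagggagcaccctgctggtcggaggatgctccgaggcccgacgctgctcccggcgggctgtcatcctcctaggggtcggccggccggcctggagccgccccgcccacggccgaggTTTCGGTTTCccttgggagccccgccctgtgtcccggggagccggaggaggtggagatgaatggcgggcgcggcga
TRIM5 promoter, chr11:5685025-5685324, minus strand: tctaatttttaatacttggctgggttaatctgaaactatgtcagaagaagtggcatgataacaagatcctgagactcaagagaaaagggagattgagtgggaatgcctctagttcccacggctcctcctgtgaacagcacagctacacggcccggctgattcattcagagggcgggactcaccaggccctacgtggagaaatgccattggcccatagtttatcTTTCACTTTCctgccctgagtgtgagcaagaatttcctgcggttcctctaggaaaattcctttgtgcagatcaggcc
TRIM6 promoter, chr11:5596387-5596686, plus strand: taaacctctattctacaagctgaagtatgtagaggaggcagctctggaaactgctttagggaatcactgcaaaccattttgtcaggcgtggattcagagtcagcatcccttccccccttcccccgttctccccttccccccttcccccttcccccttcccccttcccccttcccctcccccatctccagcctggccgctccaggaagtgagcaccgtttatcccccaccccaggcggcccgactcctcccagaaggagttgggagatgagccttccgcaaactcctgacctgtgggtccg

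The first base of the match lies at position -26 in TRIM14 and at -27 in TRIM5, counted from the start site at +1. The other 5 members with a match are shown with 15 bases to each side, again with the matches in capitals. TRIM2 rose, and TRIM16, TRIM21, TRIM26 and TRIM44 did not pass the test. TRIM21 and TRIM26 each hold a pair of matches that overlap by 4 bases.
TRIM2, chr4:153151931-153151970, plus strand: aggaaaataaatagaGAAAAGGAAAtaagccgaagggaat
TRIM16, chr17:15683007-15683046, minus strand: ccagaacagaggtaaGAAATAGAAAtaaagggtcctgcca
TRIM21, chr11:4393655-4393700, minus strand: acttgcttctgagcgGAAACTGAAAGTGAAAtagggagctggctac
TRIM26, chr6:30213570-30213615, minus strand: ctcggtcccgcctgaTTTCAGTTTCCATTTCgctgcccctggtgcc
TRIM44, chr11:35662725-35662764, plus strand: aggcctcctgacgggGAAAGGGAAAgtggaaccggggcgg

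Of the 11 members that rose, all of which had a promoter entry, 3 held an ISRE-type match (27.3%), and of the 21 that did not pass and had an entry 4 did (19%). A single window was read for each gene. The TRIM2 window ends at 153152212, before the gene start of GENCODE release 29 at 153152342. The TRIM6 window begins at 5596387, inside its GENCODE gene, which starts at 5596109. The promoter of TRIM32, the member that fell, held none. The antioxidant-response-type motif TGACNNNGC was present in 3 of 33 member promoters (9.09%), against 13.6% of all promoters, and TRIM47 was the one that rose among them. The E-box CACGTG was present in 3 of 33 (9.09%), against 7.43% of all promoters, in TRIM25, TRIM46 and TRIM66. The number of CpG sites in the promoter had a median of 13 (6 to 41) in members that rose, 20 (2 to 44) in those that did not pass, and 14 over all promoters. A match is a string of letters in a window and was not tested as a binding site.

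The level of each member was set against its exon length, because CPM alone cannot be compared between genes. TRIM28 stood far above the rest, with 158 ± 10.2 CPM per kilobase of merged exon in treated libraries (SD, n = 2) and 166 ± 9.77 in controls (SD, n = 3). It gave 30.8 and 32.9% of the summed TRIM CPM in treated libraries and 32.2 to 35.2% in controls. TRIM27 followed, at 19.0 ± 0.566 CPM per kilobase in treated libraries and 19.6 ± 0.571 in controls. TRIM65, TRIM26, TRIM37, TRIM33 and TRIM24 came next, and the values of TRIM27 and TRIM65 overlapped in treated libraries and not in controls. At the low end TRIM58, TRIM46, TRIM17, TRIM67 and TRIM22 averaged under 1 CPM. The summed level of the 43 members was 1979 and 2027 CPM in treated libraries and 1970 to 2021 CPM in controls, with the lower treated library inside the control range.

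**Figure D1:**
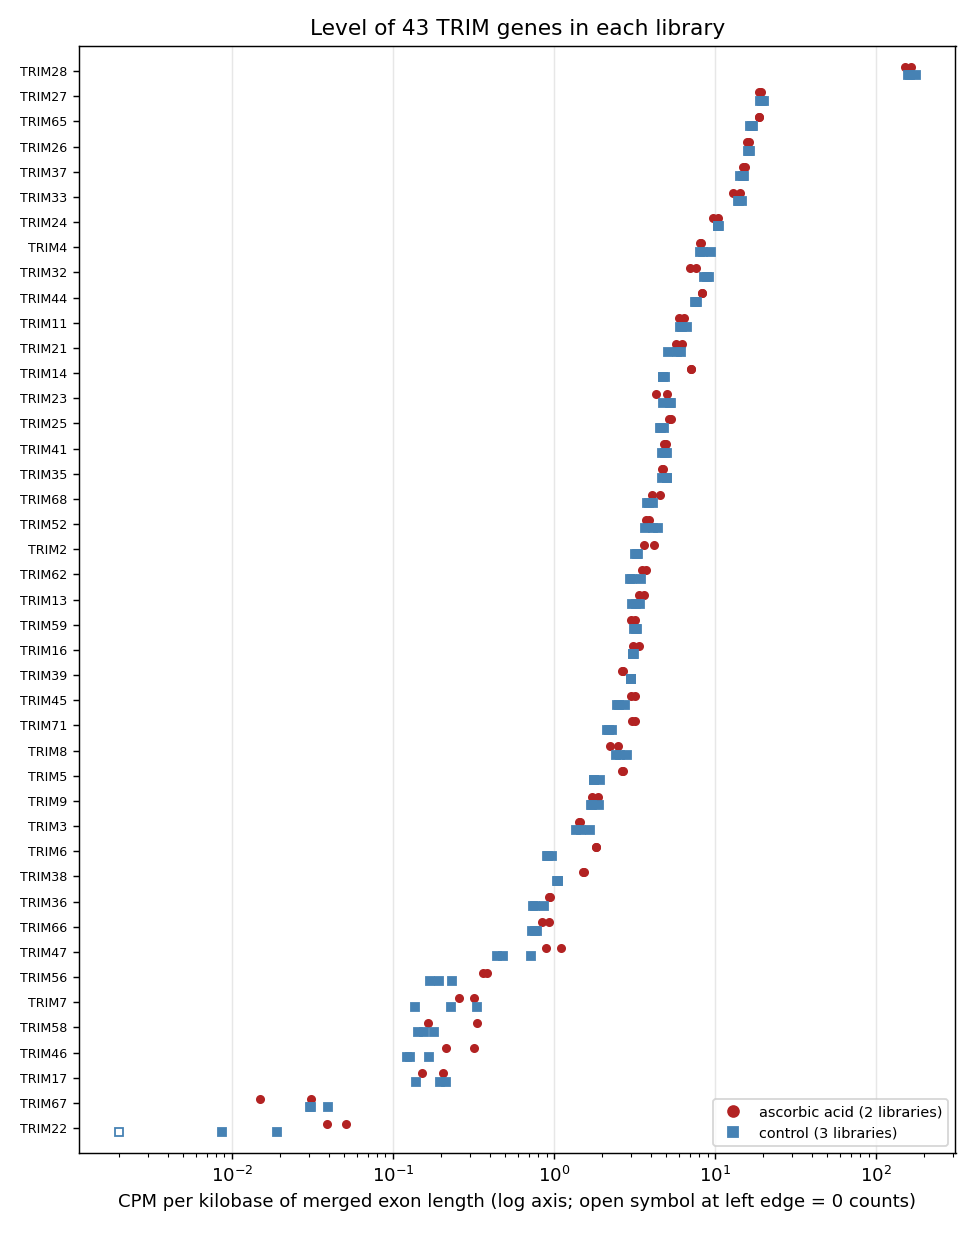
CPM per kilobase of merged exon length (log axis) of the 43 TRIM genes in each library, ascorbic acid as circles above control as squares, ordered by mean level. TRIM28 lies far to the right of the other 42, and the treated libraries of TRIM14, TRIM5, TRIM6 and TRIM38 lie clear to the right of all controls.

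Genes were compared with edgeR's quasi-likelihood test over all 15271 genes that passed a filter on low counts, and p-values were adjusted over all of them by the Benjamini-Hochberg method with a threshold of 0.05. Of the 43 members 42 were tested. With ascorbic acid 11 rose, 1 fell and 30 did not pass. Among all tested genes 8.53% were called higher and 5.76% lower, against 26.2% and 2.38% of tested members, a description of the family and not a test of it. The median log2 fold change was 0.06 over tested members and 0.00 over all tested genes. Calls differed with level. Below 20 CPM, 6 of 20 members rose and 0 fell, where 11.1% of all tested genes were called higher and 1.51% lower. At 20 CPM or more, 5 of 22 members rose and 1 fell, where 6.02% of all tested genes were called higher and 9.85% lower. Median log2 fold changes below 20 CPM were 0.24 in members and 0.10 in all tested genes. At 20 CPM or more the median was -0.04 in members and -0.04 in all tested genes. Scaling by library totals alone called 13 members higher and 1 lower, and turned the split over all genes to 1712 higher and 389 lower against 1303 and 879 here. The count of members called was 7 without ascorbic acid replicate 2, against 12 with all libraries.

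**Figure D2:**
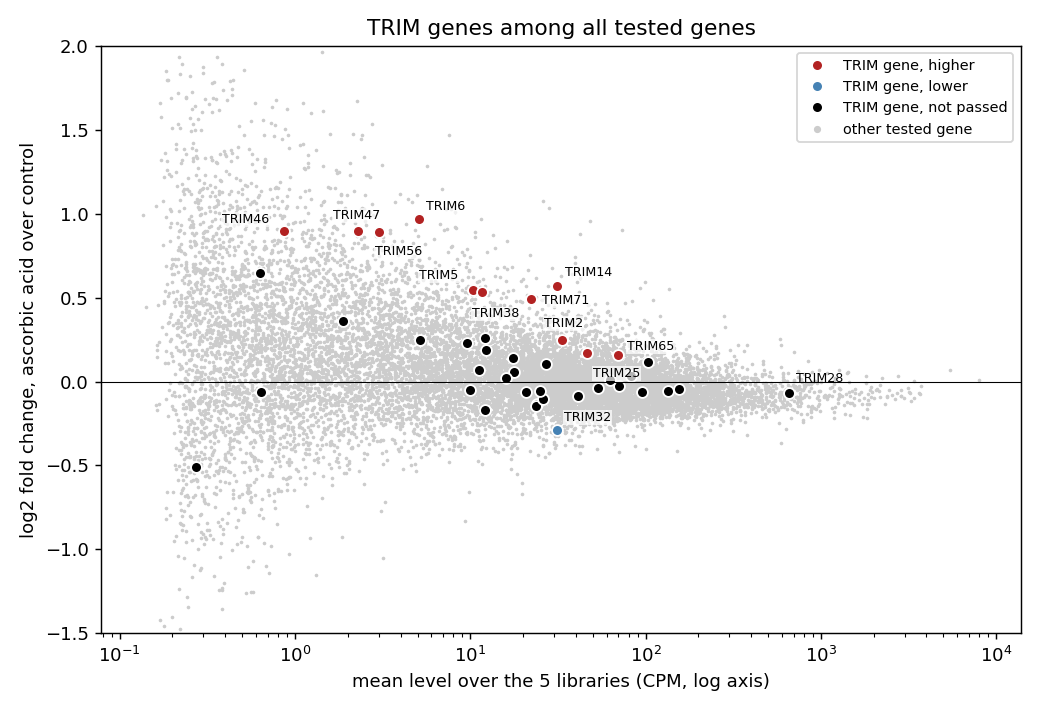
Mean level over the 5 libraries (CPM, log axis) against the log2 fold change of ascorbic acid over control, for TRIM genes (large points) and all other tested genes (grey). The 11 TRIM genes that rose lie between 0.16 and 0.97, and 21 tested genes lie outside the plotted range of -1.5 to 2.

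The treated libraries of TRIM14, TRIM6, TRIM5, TRIM38 and TRIM56 lay above all 3 controls. TRIM14, which lacks a RING finger and acts as an adaptor at mitochondrial MAVS in antiviral signalling (chromosome 9, 98069275 to 98119212, GRCh38), had 39.0 and 39.1 CPM in treated libraries, against 26.2, 25.9 and 26.8 CPM in controls. It rose 1.49-fold, a log2 fold change of 0.57 ± 0.06 (SE; edgeR adjusted p = 3.69e-07), the smallest p among the members. TRIM14 shares 7.72% of its exon length with NANS on the opposite strand, and the strand setting of the counting is not given in the sources used here.

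In the PRY-SPRY class, the largest, 6 of 19 tested members rose, 0 fell and 13 did not pass, with a median log2 fold change of 0.14, and the 6 calls became 3 without ascorbic acid replicate 1. The shares over all tested genes were 8.53% higher and 5.76% lower, with a median of 0.00. Below 20 CPM, where TRIM6, TRIM5, TRIM38 and TRIM47 lie, 11.1% of all tested genes were called higher. At 20 CPM or more, where TRIM25 and TRIM65 lie, 6.02% were. TRIM6, a PRY-SPRY ligase whose unanchored ubiquitin chains activate the kinase IKKε, had 7.19 and 7.20 CPM in treated libraries, against 3.82, 3.55 and 3.64 CPM in controls. The 1.95-fold increase (0.97 ± 0.13, edgeR adjusted p = 3.78e-06) was the largest among the tested members. TRIM6 (chromosome 11, 5596109 to 5612958) shares 29.3% of its exon length with the readthrough gene TRIM6-TRIM34, which was at 0 counts in each library. TRIM34, which shares 83.0% of its exon length with that readthrough gene, was at 0 as well, and how reads of overlapping genes were counted is not given in the sources used here.

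TRIM5, the factor that restricts retroviruses by binding their capsid (chromosome 11, 5663557 to 5938619), had 12.9 and 12.7 CPM in treated libraries, against 8.56, 8.58 and 9.30 CPM in controls. It rose 1.46-fold (0.54 ± 0.10, edgeR adjusted p = 2.31e-04). TRIM38, which dampens Toll-like receptor signalling (chromosome 6, 25962802 to 25991226), had 14.2 and 14.5 CPM in treated libraries, against 10.0, 10.0 and 9.79 CPM in controls. Its increase was 1.45-fold (0.53 ± 0.09, edgeR adjusted p = 1.48e-04). In both genes the lowest treated library lay more than 3 CPM above the highest control. TRIM56, a RING ligase without a further C-terminal domain that acts in the STING pathway (chromosome 7, 101085439 to 101097967), had 4.08 and 4.28 CPM in treated libraries, against 2.59, 2.16 and 1.91 CPM in controls. It rose 1.85-fold (0.89 ± 0.17, edgeR adjusted p = 4.47e-04).

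Interferon-inducible TRIM genes, a list of 9 genes chosen with earlier results of these data known, were considered together. Of these 7 were members and 6 were tested, and 5 rose (TRIM14, TRIM5, TRIM38, TRIM56 and TRIM25), 0 fell and 1 did not pass. Their median log2 fold change was 0.54, beside 0.06 over all tested members and 0.00 over all tested genes. Among all tested genes 8.53% were called higher and 5.76% lower. The TRIM25 call sat at the threshold and ended in 10 of 16 alternative fits. TRIM21, the cytosolic antibody receptor whose promoter holds a pair of ISRE-type matches, had 12.1 and 11.0 CPM in treated libraries, against 11.9, 11.2 and 9.85 CPM in controls, and did not pass (0.07 ± 0.10, edgeR adjusted p = 0.712). Its groups overlapped. TRIM22, an interferon-induced antiviral gene beside TRIM5, was too low to test, with 15 and 10 counts in treated libraries and 0, 2 and 4 in controls. It was the member nearest the minimum, with 31 counts in all, and the nearest symbol outside it was TRIM54, with 12.

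TRIM25, which ubiquitinates the RNA sensor RIG-I (chromosome 17, 56836387 to 56914080), had 50.6 and 49.2 CPM in treated libraries, against 44.2, 45.6 and 43.5 CPM in controls. The groups did not overlap, and the 1.12-fold increase (0.17 ± 0.06) sat at the threshold, with edgeR adjusted p = 0.0499. The call ended in 10 of 16 alternatives, among them DESeq2 (0.16, adjusted p = 0.0882), the replicate block (0.15, 0.105) and each library left out (0.15 to 0.19), and over all alternatives adjusted p ran from 0.0154 to 1. TRIM65, which ubiquitinates the RNA sensor MDA5 (chromosome 17, 75880335 to 75897003), had 74.1 and 74.6 CPM in treated libraries, against 64.9, 68.6 and 66.8 CPM in controls. Its 1.11-fold increase (0.16 ± 0.05, edgeR adjusted p = 0.0437) also ended in 10 of 16 alternatives, among them DESeq2 (0.15, adjusted p = 0.0658), the replicate block (0.16, 0.0636) and each library left out (0.14 to 0.18), with adjusted p from 0.0119 to 1.

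TRIM47, whose gene lies 1760 bases from TRIM65 (chromosome 17, 75874161 to 75878575), had 3.46 and 2.81 CPM in treated libraries, against 1.39, 1.53 and 2.25 CPM in controls. It rose 1.86-fold (0.90 ± 0.20, edgeR adjusted p = 0.00329), and the third control lay nearer to the treated libraries than the other controls. The call ended without ascorbic acid replicate 1 (0.73, adjusted p = 0.0766, the highest over its alternatives, which began at 1.07e-04). TRIM47 shares 51.5% of its exon length with AC087289.5 on the opposite strand, so its counts are uncertain. The remaining 13 PRY-SPRY members that were tested did not pass, 6 with a log2 fold change above 0 and 7 below (-0.17 to 0.65). TRIM27, which regulates endosomal actin through the WASH complex, had 155 and 149 CPM in treated libraries, against 161, 157 and 152 CPM in controls (-0.05 ± 0.05, edgeR adjusted p = 0.575). Its groups overlapped.

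**Figure D3:**
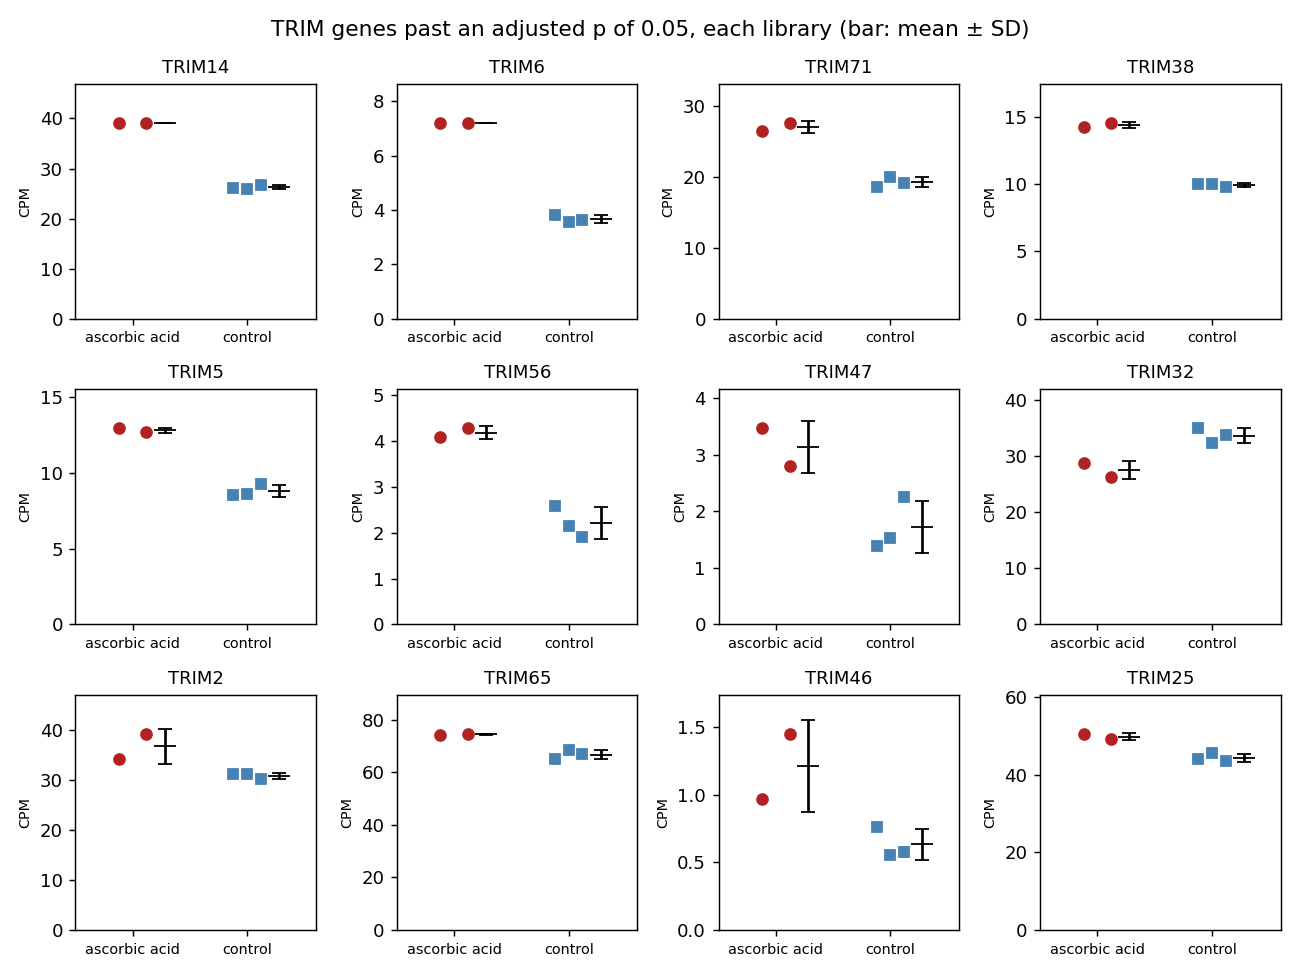
CPM of the 12 TRIM genes past an adjusted p of 0.05 in each library, with ascorbic acid (red circles) left of control (blue squares) and the mean ± SD beside the points, each axis starting at 0. The groups do not overlap in any of the 12 panels, and TRIM32 is the one with the treated libraries below.

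The groups also separated in genes that did not pass. Over all 42 tested members the treated libraries lay above all controls in 16 (38.1%) and below all of them in 2 (4.76%), where all tested genes gave 22.6% and 20.4%. Among the 30 that did not pass, 5 lay above (TRIM45, TRIM44, TRIM66, TRIM62 and TRIM36) and 1 below (TRIM39). TRIM45, which carries a filamin repeat, had 13.2 and 13.8 CPM in treated libraries, against 10.7, 12.1 and 11.1 CPM in controls (0.26 ± 0.09, edgeR adjusted p = 0.0581). It passed with library totals alone (0.30, adjusted p = 0.0297), with a filter of 5 CPM in 2 libraries (0.28, 0.0379) and with GC and length trends removed (0.26, 0.0302), and over its alternatives adjusted p ran from 0.0297 to 1.

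The NHL class, whose repeats bind RNA or protein partners, held calls in both directions: 2 of 4 members rose, 1 fell and 1 did not pass. All tested genes gave 8.53% higher and 5.76% lower. TRIM71, the LIN41 protein that represses mRNAs in stem cells and is itself a target of let-7 (chromosome 3, 32818018 to 32897826), had 26.4 and 27.6 CPM in treated libraries, against 18.5, 19.9 and 19.2 CPM in controls. It rose 1.41-fold (0.49 ± 0.07, edgeR adjusted p = 2.40e-05), with both treated libraries over 6 CPM above the highest control. TRIM2, a ligase of neurofilament light chain in mouse neurons (chromosome 4, 153152342 to 153339320), had 34.3 and 39.2 CPM in treated libraries, against 31.1, 31.3 and 30.2 CPM in controls. It rose 1.19-fold (0.25 ± 0.07, edgeR adjusted p = 0.0129), and the second treated library stood apart from the first. The call ended without that library (0.14, adjusted p = 0.273), and over its alternatives adjusted p ran from 0.00154 to 1.

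TRIM32, a ligase of muscle proteins mutated in a limb-girdle muscular dystrophy (chromosome 9, 116687302 to 116701300), was the 1 member that fell. It had 28.7 and 26.3 CPM in treated libraries, against 34.9, 32.2 and 33.6 CPM in controls. The level was 0.818 of the control level (log2 fold change -0.29 ± 0.07, edgeR adjusted p = 0.00463), and the groups did not overlap. Without ascorbic acid replicate 2 it did not pass (-0.24, adjusted p = 0.0586), and over its alternatives adjusted p ran from 6.71e-04 to 1. TRIM3, the remaining NHL member, had 9.87 and 9.61 CPM in treated libraries, against 9.22, 9.89 and 11.3 CPM in controls, and its groups overlapped (-0.05 ± 0.10, edgeR adjusted p = 0.804).

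**Figure D4:**
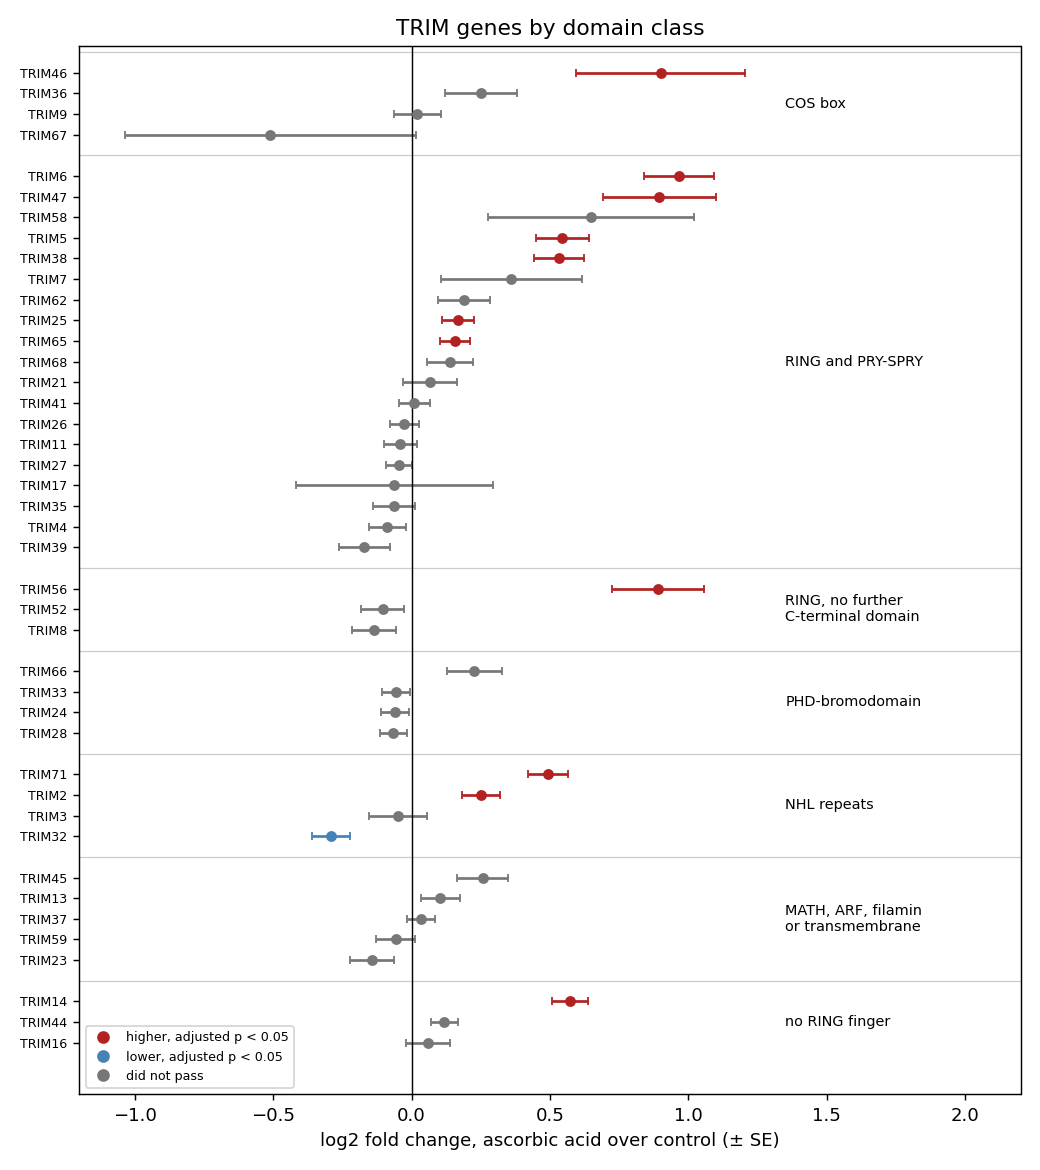
Log2 fold change of ascorbic acid over control (± SE) of the 42 tested TRIM genes by C-terminal domain class, coloured by call. The 4 PHD-bromodomain genes are all grey, and the NHL class spans TRIM71 at 0.49 and TRIM32 at -0.29.

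The chromatin-reading PHD-bromodomain class held 4 tested members and 0 calls in edgeR, with 1 of 4 (TRIM66) under an unadjusted p of 0.05 and 0 of 4 called by DESeq2. In edgeR 14.3% of all tested genes were called in either direction. TRIM28 (chromosome 19, 58544091 to 58550722) had 667 and 609 CPM in treated libraries, against 636, 656 and 712 CPM in controls, with overlapping groups (-0.07 ± 0.05, edgeR adjusted p = 0.409). It passed as lower once GC and length trends were removed (-0.13, adjusted p = 0.0157, the lowest over its alternatives, which reached 1). TRIM24, a cofactor of nuclear receptors, had 89.6 and 96.6 CPM in treated libraries, against 97.0, 96.6 and 97.6 CPM in controls (-0.06 ± 0.05, edgeR adjusted p = 0.473). TRIM33, which acts with SMAD proteins in TGF-beta signalling, had 124 and 137 CPM in treated libraries, against 141, 135 and 132 CPM in controls (-0.06 ± 0.05, edgeR adjusted p = 0.492). In both genes 1 treated library lay within the control range and the other below it.

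Of 18 genes listed as partners of TRIM28 in heterochromatin, 2 rose, 4 fell and 12 did not pass, with a median log2 fold change of -0.04 beside 0.00 over all tested genes. The shares over all tested genes were 8.53% higher and 5.76% lower. All 18 lay above 20 CPM, and genes of 20 CPM or more gave 6.02% higher and 9.85% lower, with a median of -0.04. ATF7IP, which stabilises the H3K9 methyltransferase SETDB1, had 118 and 117 CPM in treated libraries, against 97.7, 96.5 and 94.6 CPM in controls (0.29 ± 0.05, edgeR adjusted p = 1.08e-04). The HUSH silencing subunit TASOR rose (0.21 ± 0.05, 0.00397), and its call ended without ascorbic acid replicate 2 (0.13, adjusted p = 0.128, with 1 as the highest over its alternatives). MORC2, which works with HUSH, fell by 0.24 ± 0.05 on the log2 scale (edgeR adjusted p = 0.00227). The 4 lower calls became 1 with library totals alone, with cyclic loess, with the 5 CPM filter and without control replicate 1 or 2, and 2 without ascorbic acid replicate 1. The 2 higher calls became 4 with library totals alone or cyclic loess, 5 with GC and length trends removed and 1 without ascorbic acid replicate 2. Against a fold of 1.2 neither direction kept a call.

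Among microtubule-binding COS box members 1 of 4 rose, where 8.53% of all tested genes were called higher. TRIM46, which bundles microtubules in the axon initial segment of neurons (chromosome 1, 155173787 to 155184971), had 0.969 and 1.45 CPM in treated libraries, against 0.764, 0.553 and 0.578 CPM in controls, or 47 and 62 counts against 43, 21 and 20. The groups did not overlap, and the 1.87-fold increase (0.90 ± 0.31, edgeR adjusted p = 0.0462) ended in 10 of 15 alternatives that gave a value, among them DESeq2 (0.91, adjusted p = 0.148), limma-voom (0.86, 0.0617) and the replicate block (0.82, 0.130). Without ascorbic acid replicate 2 the value was 0.58 (adjusted p = 0.403, the highest over its alternatives, which began at 0.0329), without control replicate 1 it was 1.09, and without control replicate 2 or 3 it was 0.81 or 0.84. TRIM9, TRIM36 and TRIM67 did not pass (-0.51 to 0.25).

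The members with a MATH, ARF, filamin or transmembrane domain numbered 5, and 0 were called in edgeR, with 1 (TRIM45) under an unadjusted p of 0.05 and 0 called by DESeq2. Of all tested genes 14.3% were called by edgeR in either direction. TRIM37, a centrosomal and peroxisomal ligase and the highest of them in CPM, had 82.2 and 84.3 CPM in treated libraries, against 81.9, 79.0 and 82.9 CPM in controls (0.03 ± 0.05, edgeR adjusted p = 0.713). Beside TRIM56, the members with a RING and no further C-terminal domain were TRIM8 and TRIM52, which did not pass. TRIM8, a regulator of cytokine signalling, had 23.7 and 21.3 CPM in treated libraries, against 23.1, 24.5 and 27.0 CPM in controls (-0.14 ± 0.08, edgeR adjusted p = 0.261), and passed as lower with GC and length trends removed (-0.19, adjusted p = 0.0368, with 1 as the highest over its alternatives). The class listed as having no RING finger held 3 members, of which TRIM44 and TRIM16 did not pass. TRIM44 had 108 CPM in both treated libraries, against 99.4, 101 and 98.6 CPM in controls (0.12 ± 0.05, edgeR adjusted p = 0.0986), and it passed in 4 of 16 alternatives (0.13 to 0.16, adjusted p from 0.0171, with 1 as the highest over its alternatives).

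Members lie in clusters on several chromosomes, with 8 each on chromosomes 1 and 11. On the short arm of chromosome 11 TRIM6 and TRIM5 lie 50599 bases apart and both rose, while TRIM22 within the span of TRIM5 was not tested. TRIM21 and TRIM68 at lower coordinates and TRIM3 and TRIM66 at higher ones did not pass. On chromosome 17 the neighbours TRIM47 and TRIM65 were both called higher. On chromosome 1 TRIM11 and TRIM17 lie 1100 bases apart and neither passed, and on chromosome 5 TRIM7, TRIM41 and TRIM52 lie 17206 and 18608 bases apart in turn and none of the 3 passed in edgeR, with 0 of them under an unadjusted p of 0.05 and 0 called by DESeq2. TRIM7 passed without control replicate 3 (0.70, adjusted p = 0.0467, the lowest over its alternatives, which reached 1).

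TRIM-type proteins whose genes carry other symbols were taken from a fixed list, of which 11 genes were tested. Of these 2 rose, 0 fell and 9 did not pass, with a median log2 fold change of 0.14. Over all tested genes 8.53% were called higher and 5.76% lower, with a median of 0.00. MID2, a microtubule-binding COS box ligase, had 60.5 and 63.2 CPM in treated libraries, against 50.5, 51.6 and 49.1 CPM in controls (0.29 ± 0.06, edgeR adjusted p = 5.60e-04). Its close relative MID1, mutated in Opitz syndrome, did not pass (0.06 ± 0.07). RNF135, the Riplet ligase of RIG-I, had 15.2 and 16.6 CPM in treated libraries, against 13.4, 12.1 and 11.6 CPM in controls (0.36 ± 0.09, edgeR adjusted p = 0.00784). Its call ended without ascorbic acid replicate 2 (0.29, adjusted p = 0.101, with 0.701 as the highest over its alternatives). Neither MID2 nor RNF135 was called against a fold of 1.2. PML, the scaffold of nuclear bodies, had 0.14 ± 0.08 and did not pass.

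The pathways in which these ligases act were read from 3 further lists. For comparison, 8.53% of all tested genes were called higher and 5.76% lower, with a median of 0.00. Of 15 tested genes of RNA and DNA sensing, 1 rose, 0 fell and 14 did not pass, with a median of 0.02. STING1 was the gene called (0.61 ± 0.21, edgeR adjusted p = 0.0475), at 2.14 and 2.69 CPM in treated libraries and 1.74, 1.68 and 1.27 CPM in controls. Its call ended in 9 of 15 alternatives that gave a value, among them DESeq2 (0.61, adjusted p = 0.156), each treated library left out (0.76 and 0.43) and control replicates 1 and 3 left out (0.70 and 0.49), with 0.369 as the highest adjusted p over its alternatives. Of 14 genes listed as ubiquitin-conjugating partners of RING ligases, 0 rose, 2 fell and 12 did not pass, with a median of -0.06. UBE2E2 fell by 0.28 ± 0.06 on the log2 scale (edgeR adjusted p = 0.00291) and UBE2E1 by 0.22 ± 0.05 (0.00272), and in both the treated libraries lay below all controls. Neither was called against a fold of 1.2.

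Of 21 tested interferon-stimulated genes outside the family 7 rose, 0 fell and 14 did not pass, with a median of 0.31. Over all tested genes 8.53% were called higher and 5.76% lower, with a median of 0.00. Most of the 21 lay below 20 CPM, where all tested genes gave 11.1% higher and 1.51% lower, with a median of 0.10. The membrane antiviral gene IFITM3 had 2.66 and 2.43 CPM in treated libraries, against 0.693, 1.05 and 1.07 CPM in controls (1.48 ± 0.23, edgeR adjusted p = 5.39e-05). Its neighbours IFITM2 (0.74 ± 0.12, 9.30e-05) and IFITM1 (0.89 ± 0.17, 7.81e-04) rose as well, and reads of these close paralogs may be shared between them. OAS1, OAS2 and RSAD2, which interferon induces in many cells, were at 0 counts in each library. The 7 calls became 4 with DESeq2, with the 5 CPM filter and without ascorbic acid replicate 2 or control replicate 1, and 3 against a fold of 1.2.

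**Figure D5:**
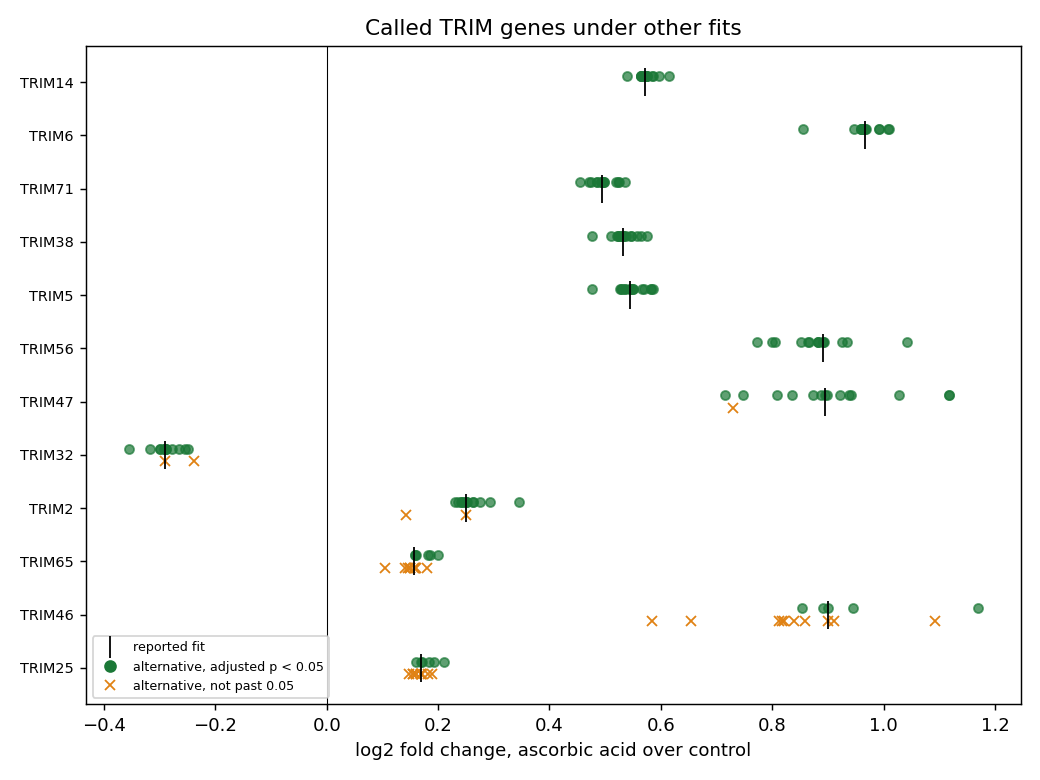
Log2 fold change of the 12 called TRIM genes under each alternative fit, as circles where the call was kept and crosses where it was not, with the reported value as a bar. TRIM14, TRIM6, TRIM71, TRIM38, TRIM5 and TRIM56 have circles alone, and TRIM65, TRIM46 and TRIM25 have more crosses than circles.

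The 12 calls differed in how far they held over other fits. TRIM14, TRIM6, TRIM71, TRIM38, TRIM5 and TRIM56 passed in each alternative that gave a value, with log2 fold changes of 0.54 to 0.61, 0.85 to 1.01, 0.46 to 0.54, 0.48 to 0.57, 0.48 to 0.59 and 0.77 to 1.04 in that order. TRIM2 and TRIM32 each lost the call against a fold of 1.2 and without ascorbic acid replicate 2, and TRIM47 lost it without ascorbic acid replicate 1. All 12 kept the direction of change in each alternative.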

How the data were processed

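Per the labels' protocols, total RNA was taken in Trizol, mRNA was captured on beads and libraries were made with a VAHTS kit. The tools named in the submitters' processing notes are Trimmomatic 0.39, STAR, featureCounts and DESeq2, with the build hg38 (GRCh38). The deposited values are raw counts of reads per gene symbol for 5 libraries. No annotation, strand setting or handling of shared reads is given in the sources used here. Columns were assigned by name, with "vc" read as vitamin C and "con" as control.

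The main comparison used edgeR 4.0.16 (R 4.3.3): filterByExpr on the groups, TMM factors, glmQLFit with its robust option and the two-sided glmQLFTest, without covariates, checked on simulated data. An SE is the size of the log2 fold change over the root of F. CPM uses TMM-scaled totals, and the biological coefficient of variation was 4.6%. Replicates differed by more than counting noise (chi-square per degree of freedom 3.95 to 7.2). Positions, overlaps and merged exon lengths came from GENCODE release 29, which all 43 members matched. The last 20 bases of 29 of 33 RefSeq promoters occur in a GENCODE transcript of the gene. Precision is limited by 2 and 3 libraries a group.

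Alternatives were DESeq2 1.42.0, limma-voom (limma 3.58.1), DESeq2 size factors, library totals, cyclic loess, no filter, 5 CPM in 2 libraries, the replicate block, a test against a fold of 1.2 (glmTreat), halved counts and each library left out. Removal of GC and length trends with mgcv 1.9.3 was chosen after seeing the data and covered 97% of tested genes. Members and lists were chosen with earlier results of these data known. Each called member is named, with a panel of 10 (TRIM28, TRIM24, TRIM33, TRIM25, TRIM21, TRIM5, TRIM27, TRIM32, TRIM71 and TRIM8), the highest member of a class with no call, and up to 3 called genes of each other list. TRIM3, TRIM22, TRIM44, TRIM45, the genes listed by cluster, class or motif, MID1 and PML were chosen after their values were seen. Some results are not reported here.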

Additional observations from a re-analysis of the deposited data

How the results depend on the processing

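The count of 12 members called was 7 against a fold of 1.2 and 7 to 11 with 1 library left out. The 11 higher members became 7 against a fold of 1.2 and 7 to 10 with 1 library left out, and the 1 lower member became 0 against a fold of 1.2, 3 with GC and length trends removed and 0 to 1 with 1 library left out. The 2182 calls over all genes became 1448 with cyclic loess, which also swaps the count model for limma, 286 against a fold of 1.2, and 1180 to 2047 with 1 library left out, lowest without control replicate 1. With a treated library left out, the variation of the lone one is taken from the controls. The cause of these moves was not tested. DESeq2 called 806 genes higher and 906 lower, and library totals moved the median of all genes to 0.05. No member's direction reversed in a fit where it was called. The labels do not say that replicate numbers mark shared cultures, and the deviations of same-numbered libraries correlated at 0.00 and 0.08. With the replicate block 9 members were called, 8 higher and 1 lower, and 1880 genes in all, and TRIM25, TRIM65, TRIM46 and STING1 were no longer called. Members below 1 CPM rest on few counts a library, so small changes in them were not detectable at this depth.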

Other observations

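The 23 TRIM symbols of the same pattern that fell below the minimum had 0 to 12 counts over the 5 libraries, and 12 of them had 0. Among them were the 4 striated muscle TRIM genes: TRIM54, TRIM55, TRIM63 and TRIM72 had 12, 6, 4 and 4 counts in all. The muscle ligase TRIM63 had its 4 counts in a single treated library, and TRIM72 had 2 in each treated library and 0 in the controls. TRIM69, an interferon-inducible TRIM gene, had 0 and 4 counts in treated libraries and 2, 0 and 0 in controls. TRIM48, TRIM49, TRIM51, TRIM64 and TRIM77, close relatives on chromosome 11, were listed at 0, and reads that match several of them may not have been counted.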
